A study of Mus musculus with 4 samples.

Results

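The respiratory chain genes of group 2 innate lymphoid cells (ILC2) sorted from mouse pancreas were compared by the genome that encodes them and by the enzyme complex they build. The members were chosen by name and chromosome: every mitochondrial row of the count table, and every nuclear row whose symbol names a subunit of complex I (Nduf), complex II (Sdh), complex III (Uqcr), complex IV (Cox) or complex V (Atp5), without pseudogenes. This gave 104 of the 11352 rows that are not spike-ins, 28 of them mitochondrial and 76 nuclear. The nuclear members comprise 34 of complex I, 4 of complex II, 8 of complex III, 13 of complex IV and 17 of complex V. Ndufa4, named for complex I, is counted with complex IV, where its protein is found. The symbols Atp5s and Atp5sl match by name only, since their proteins are an ATP synthase factor and an assembly-related protein rather than core subunits.

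Single cells were index-sorted into 384-well plates and sequenced with SORT-seq, a method based on CEL-seq2 in which reads come from the 3' end of RNAs with a poly(A) tail. The mice are labelled C57BL6J, and all cells carry KIKR, a protein that turns from green to red fluorescence on exposure to violet light. The 2 groups are KIKR-Red cells, here called photoconverted, and KIKR-Green cells, here called non-photoconverted. The series title concerns fasting, but the labels give no feeding state, age, number of animals or place of photoconversion, and they do not say which cells share an animal. Only plate 1 was used for genes. It held 52614294 reads over 12 photoconverted cells, 151 non-photoconverted cells and 221 empty wells, all in 1 library. Both colours therefore come from 1 sample, no test over samples exists, and every comparison below is a description of these cells with no p-value.

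Of these, 8 photoconverted and 98 non-photoconverted cells had at least 500 genes with a read and under 25% mitochondrial reads. Photoconverted cells held more gene reads, with a median of 540662 gene reads and 2748.5 genes against 187690 gene reads and 1637 genes. Their spike-in reads were not more numerous, with a median of 59283.5 against 67405, and the cause was not tested. Depth here means the gene reads and genes found in a cell. Each photoconverted cell was therefore set beside the 5 non-photoconverted cells nearest to it in number of genes, which gave 29 distinct cells, called depth-matched cells below. Matching on genes did not equalise reads: the depth-matched cells had a median of 365563 gene reads and 2513 genes. At least 3 of 15 ILC2 marker genes were detected in 8 of 8 photoconverted and 85 of 98 non-photoconverted cells. Gata3, the transcription factor that specifies ILC2, was detected in 8 of 8 photoconverted and 83.7% of non-photoconverted cells. No cell had 3 or more T cell or acinar markers, of which the table holds 4 and 5. All 5 acinar genes were never detected. Cd3e was never detected either, so a count of 3 T cell markers needed every other T cell gene. Cd3g was detected in 2 of 8 photoconverted and 9 of 98 non-photoconverted cells, and Cd3d in 1 of 8 and 2 of 98. Of the other marker lists (NK cells or ILC1, ILC3, myeloid, B, endocrine, stromal or endothelial cells) only 1 or 2 genes each were detected at all, too few for such a count. Ltb, lymphotoxin beta, from the ILC3 list, was detected in 4 of 8 photoconverted, 85% of depth-matched and 46.9% of all non-photoconverted cells. Cst3, from the myeloid list, was detected in 6 of 8 photoconverted, 40% of depth-matched and 29.6% of all non-photoconverted cells. Cd68, from the same list, was detected in 1 of 8 photoconverted and 0 of 98 non-photoconverted cells.

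Complexes I to IV of the inner mitochondrial membrane pass electrons from NADH and succinate to oxygen, and complexes I, III and IV pump protons as they do so. Complex V, the ATP synthase, uses the proton gradient to make ATP. The mitochondrial genome encodes a few core subunits of complexes I, III, IV and V together with the ribosomal and transfer RNAs needed to make them, while complex II and all other subunits are encoded in the nucleus and imported. Resting lymphocytes draw much of their ATP from this chain, and ILC2 are known to rely on mitochondrial oxidation of fatty and amino acids.

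The method primes on poly(A), and the ends of the mitochondrial genes are shown because they differ in what they encode before the tail. The table holds no read positions, so where reads lie within a gene is not known. The sequences below are the last 30 bases of 6 mitochondrial genes, from the GENCODE M21 transcripts on mm10, 5' to 3', with the encoded part of the stop codon in capitals. In mtCo3 (bases 8607 to 9390 of the mitochondrial chromosome), mtCytb (14145 to 15288) and mtNd4 (10167 to 11544) only the T of the stop codon is encoded, and the poly(A) tail is known to supply the rest. The other 10 of the 13 protein-coding genes end in a complete stop codon, as mtAtp6 (7927 to 8607) and mtNd4l (9877 to 10173) do. The large ribosomal RNA mt-Rnr2 (1094 to 2675) has no stop codon and is known to carry at most a short tail, but it was among the mitochondrial rows with most reads. Its longest internal run of A is 7 bases. All 6 genes lie on the plus strand and have no introns.
mtCo3: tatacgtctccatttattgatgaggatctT
mtCytb: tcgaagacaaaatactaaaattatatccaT
mtNd4: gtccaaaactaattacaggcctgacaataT
mtAtp6: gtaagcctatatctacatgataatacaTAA
mtNd4l: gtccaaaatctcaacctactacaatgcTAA
mt-Rnr2: atacgtacaccctctaacctagagaaggtt
Several of these genes overlap, so their reads may have been split by the counting step. mtAtp8 shares 43 bases with mtAtp6, mtNd4l shares 7 bases with mtNd4, and mtAtp6 shares 1 base with mtCo3. mtNd5 and mtNd6 share 14 bases on opposite strands, and whether counting used the strand is not given in the sources used here.

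For the nuclear members, the promoters of Atp5k, Cox6a1 and Sdha are shown, because Atp5k and Cox6a1 lay higher and Sdha lower in photoconverted cells in the results that follow. RefSeq promoters (GRCm38.p6) were matched by symbol for 62 of the 76 nuclear members. Each sequence is the 250 bases before the RefSeq gene start, 5' to 3' on the gene's own strand, which is the minus strand for all 3 genes. Capitals mark matches, on either strand, to the core motif of nuclear respiratory factor 1 (NRF1), 10 letters long with 1 free position, and to CCGGAAG, a motif of ETS family factors such as GABP. The last bases of each window lie inside the GENCODE M21 gene model, which starts farther upstream.
Atp5k, chr5:108434400-108434649: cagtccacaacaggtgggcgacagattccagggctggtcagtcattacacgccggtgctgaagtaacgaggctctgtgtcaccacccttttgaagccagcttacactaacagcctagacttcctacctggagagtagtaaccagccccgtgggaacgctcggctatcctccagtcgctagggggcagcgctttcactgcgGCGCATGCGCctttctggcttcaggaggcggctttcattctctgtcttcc
Cox6a1, chr5:115348959-115349208: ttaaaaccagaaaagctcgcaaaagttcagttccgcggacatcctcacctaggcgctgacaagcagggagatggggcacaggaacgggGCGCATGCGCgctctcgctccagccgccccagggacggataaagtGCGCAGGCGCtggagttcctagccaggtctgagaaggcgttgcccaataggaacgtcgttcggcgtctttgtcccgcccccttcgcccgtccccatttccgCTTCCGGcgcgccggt
Sdha, chr13:74350241-74350490: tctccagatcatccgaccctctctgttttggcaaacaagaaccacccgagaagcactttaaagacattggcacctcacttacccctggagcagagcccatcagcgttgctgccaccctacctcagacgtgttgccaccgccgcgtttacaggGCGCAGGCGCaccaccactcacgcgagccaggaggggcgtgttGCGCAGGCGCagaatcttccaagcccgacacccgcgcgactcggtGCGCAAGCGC
Matches were counted over windows from 250 bases before to 50 bases after the start. The NRF1 motif was found for 16 of 62 members (25.8%), against 14.7% of the 2704 genes tested here that have a promoter entry and 4.60% of all 32851 promoters. The ETS motif was found for 16 members as well, against 24.7% of tested genes and 8.86% of all promoters. AANATGGCG, the motif of YY1, was found for 10 members (16.1%), against 7.95% and 2.38%. At least 1 of the 3 motifs was found for 36 members (58.1%), against 40.1% of tested genes and 14.2% of all promoters. Of the promoters shown, Sdha has 3 NRF1 matches, Cox6a1 has 2 and Atp5k has 1, and the ETS match of Atp5k lies after the start, outside the bases shown. A match is a description of the letters and not a measured site. By complex, 16 of 30 members of complex I with a promoter, 3 of 3 of complex II, 3 of 5 of complex III, 3 of 11 of complex IV and 11 of 13 of complex V held at least 1 of the motifs.

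Mitochondrial RNA took up less of the reads of photoconverted cells on average, while nuclear respiratory chain RNA took up about the same share. Mitochondrial rows made up 1.89%, 6.82% and 10.9% of gene reads in the lowest, median and highest photoconverted cell. In the depth-matched cells the corresponding shares were 1.97%, 7.89% and 20.7%, and in all 98 non-photoconverted cells 1.01%, 9.39% and 23.7%. All photoconverted cells lay within the range of the 98 non-photoconverted cells, but no photoconverted cell reached the upper part of the non-photoconverted range. The mean share was 6.73% in photoconverted and 9.93% in depth-matched cells, a log2 ratio of -0.56. Only 3 of 8 photoconverted cells lay above the median of their own matched cells (37.5%, exact 95% binomial interval 8.52 to 75.5%, which covers the counting of cells only). The photoconverted cell with the lowest mitochondrial share, 1.89%, had matched cells between 6.25% and 17.4%, and the cell with 2.76% had matched cells between 7.15% and 20.7%. For the other 6 cells the share fell within the range of their matched cells or, in 1 case, below it by less than 1 percentage point.

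**Figure D1:**
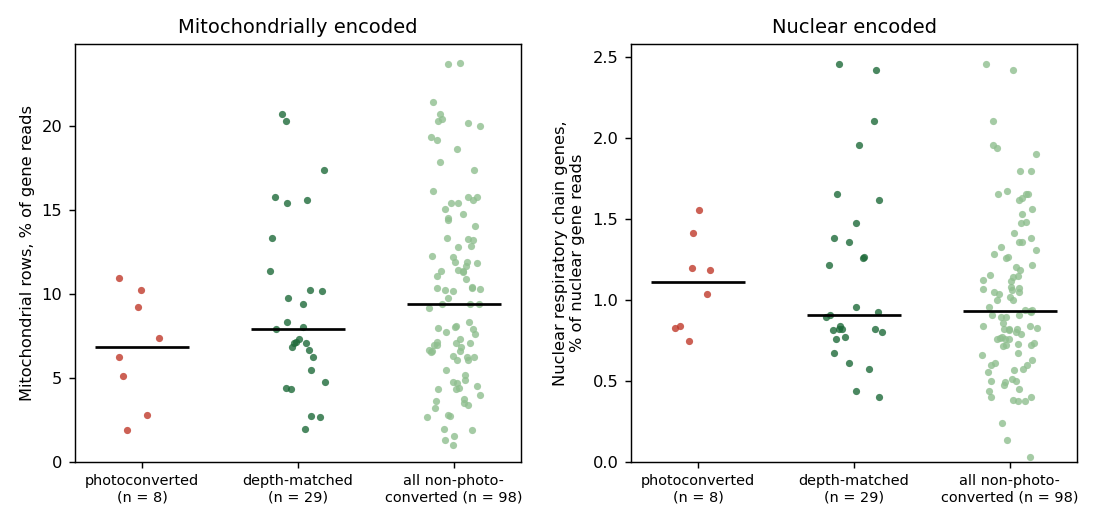
Share of reads per cell in respiratory chain genes, with mitochondrial rows as a percentage of all gene reads on the left and nuclear members as a percentage of nuclear gene reads on the right. Each point is a cell and the bar is the median of the group; the mitochondrial shares of the 8 photoconverted cells end at 10.9% while depth-matched cells reach 20.7%, and the nuclear shares overlap.

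The nuclear members made up 0.744%, 1.11% and 1.55% of nuclear gene reads in the lowest, median and highest photoconverted cell. Depth-matched cells had 0.402%, 0.909% and 2.46%, and all non-photoconverted cells 0.0291%, 0.929% and 2.46%. The photoconverted cells thus lay inside the range of the depth-matched cells, and 4 of 8 were above the median of their own matched cells (50%, interval 15.7 to 84.3%). The direction differed between summaries, since the median was higher but the mean was lower in photoconverted cells (1.10% against 1.20%, log2 ratio -0.13). Against all 98 non-photoconverted cells, with a mean of 1.01%, the log2 ratio was 0.12.

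Part of the mean of the depth-matched cells came from 3 non-photoconverted cells in which 27, 10 and 18 of the 30 cell cycle genes in the table were detected. No other cell of either colour had more than 7. Their nuclear respiratory chain shares of 1.96%, 1.48% and 2.11% ranked 4, 18 and 3 of 98 non-photoconverted cells, and they had 53, 48 and 54 nuclear members at 16 reads or more. Their mitochondrial shares were 7.15%, 4.34% and 20.7%. Together they carried 17.5% of the weight of the depth-matched cells. Without them the matched mean of the nuclear share was 1.02%, a log2 ratio of 0.10, and 6 of 8 photoconverted cells lay above their matched median. The log2 ratio of the mitochondrial share was -0.43 without them.

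Reads of the chain relative to the spike-in RNA added to each well followed the depth of the cells. A median of 0.593 mitochondrial reads per spike-in read was found in photoconverted cells, 0.412 in depth-matched and 0.208 in all non-photoconverted cells. For the nuclear members the medians were 0.0888, 0.0566 and 0.0259. The mean for the mitochondrial reads went the other way, with 0.640 in photoconverted and 0.850 in depth-matched cells, so its direction depends on the summary. For the nuclear members the means were 0.0969 and 0.0881. Spike-in reads themselves had a median of 59283.5 in photoconverted and 66549 in depth-matched cells.

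Among the mitochondrial genes, all 14 rows that were detected at 16 reads in at least 10 cells had a lower mean level in photoconverted cells. These are 12 protein-coding genes and both ribosomal RNAs. Of all 3530 genes tested, 2123 were lower and 1407 higher in mean level. The median log2 ratio of their mean CPM, which is counts scaled to 1000000 gene reads per cell, with 10 CPM added to both means, was -0.59, against -0.28 over all 3530 genes tested. The 13 transfer RNA rows and mtNd6, the subunit encoded on the other strand, were below this limit. mtNd6 had 59 reads in the 98 non-photoconverted and 0 in the 8 photoconverted cells, and the transfer RNAs together had 359 and 18 reads. Transfer RNAs carry no long poly(A) tail, so this protocol is not a measure of them.

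Complex I subunits encoded in the mitochondrion form the proton-pumping membrane arm. mtNd1, the subunit next to the quinone site, had 1473, 3611 and 6444 CPM in the lowest, median and highest photoconverted cell, against a median of 4284 and a highest value of 12599 CPM in depth-matched cells. mtNd4, a pumping subunit, had 363, 3696 and 11591 CPM against a median of 5049 and a highest value of 22362. In both genes the ranges overlapped and the highest cell was a depth-matched one. The log2 ratio of means was -0.45 for mtNd1, -0.72 for mtNd2, -0.32 for mtNd3, -0.70 for mtNd4 and -0.48 for mtNd5. mtNd4l, a small membrane subunit, stood apart with -2.32, but its level rested on few cells. It was detected in 4 of 8 photoconverted and 50% of depth-matched cells, 1 photoconverted cell held 88.9% of the summed CPM of that colour, and the ratio ranged from -4.91 to -1.85 when each photoconverted cell was left out in turn.

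mtCytb, the cytochrome b of complex III, had 312, 9401 and 22207 CPM in the lowest, median and highest photoconverted cell. In depth-matched cells the median was 11024 and the highest value 49710.3 CPM, and the log2 ratio of means was -0.52 (leaving out 1 photoconverted cell, -0.86 to -0.30). Of the catalytic subunits of complex IV, mtCo1, which holds the oxygen-reducing site, had a log2 ratio of -0.85. mtCo2, which receives electrons from cytochrome c, had -0.22 and mtCo3 had -0.19. mtCo2 was at 3904, 11817 and 16307 CPM in photoconverted cells against a matched median of 8842, so that its median was higher although its mean was lower. The same held for mtCo3, mtNd3 and mtNd5, while the other 10 rows had both a lower median and a lower mean.

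In complex V, mtAtp6, the proton channel subunit, had 4117, 13284 and 25789.6 CPM in photoconverted cells, and a median of 14987 and highest value of 54235 in depth-matched cells (log2 ratio of means -0.42). The overlapping mtAtp8, a stator subunit, had a ratio of -0.84 at means of 102 and 190.3 CPM. The ribosomal RNAs mt-Rnr1 and mt-Rnr2 had ratios of -0.65 and -0.90. mt-Rnr2 was at 1302, 7288 and 18357 CPM against a matched median of 11696 and highest value of 39085. The colours overlapped in all 14 tested mitochondrial rows: in none did the lowest photoconverted cell exceed the highest depth-matched cell, and in none was the highest value found in a photoconverted cell.

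**Figure D2:**
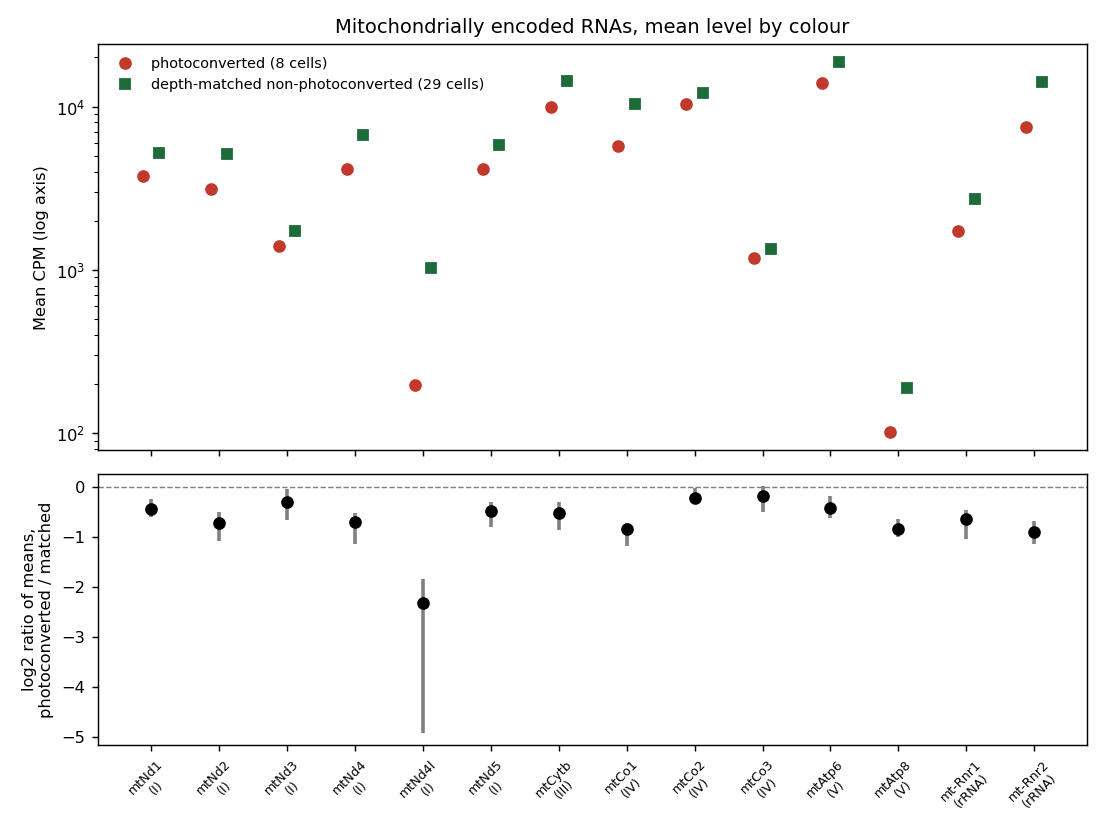
Mean CPM of the 14 mitochondrial rows tested, by colour (upper panel, log axis), and the log2 ratio of these means with 10 CPM added (lower panel, points), with grey bars from the lowest to the highest ratio when each photoconverted cell is left out in turn. All 14 ratios lie below 0, and the longest bar belongs to mtNd4l, from -4.91 to -1.85.

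Per kilobase of gene, the mean level in non-photoconverted cells was highest for mtAtp6, at 29326 CPM per kilobase, followed by mtCo2 at 16065, mtCytb at 10676, mt-Rnr2 at 8917 and mtNd2 at 7561. The lowest tested rows were mtCo3 at 2328 and mtAtp8 at 995 CPM per kilobase. In photoconverted cells mtAtp6 (20399), mtCo2 (15076) and mtCytb (8743 CPM per kilobase) again had the highest levels. Since reads come from 3' ends, length is a rough scale here. Within the mitochondrial reads of a cell, protein-coding genes took a median of 87.6% when photoconverted and 84.2% when not, and ribosomal RNA took 12.4% and 15.8%. mtAtp6 alone took a median of 23.1% and 17.6%, and mtCo2 15.9% and 10.2%. The spread between cells was wide: mtAtp6 ranged from 9.3% to 32.4% in photoconverted and from 0.216% to 53.1% in non-photoconverted cells.

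The nuclear members were mostly sparse in each cell, and the number detected followed depth. At 16 reads or more, the lowest, median and highest photoconverted cell had 4, 38.5 and 61 of the 76 nuclear members, depth-matched cells 3, 26 and 58, and all non-photoconverted cells 0, 15 and 58. The photoconverted number was above the median of the matched cells in 7 of 8 cells. Across the 98 non-photoconverted cells, the number of members detected and the number of genes had a Spearman rho of 0.909, a description of cells that share 1 library and in which both measures grow with reads. In empty wells, which show the level of free RNA, 66 of the 76 nuclear members were never detected and the others in at most 2 of 221 wells.

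**Figure D3:**
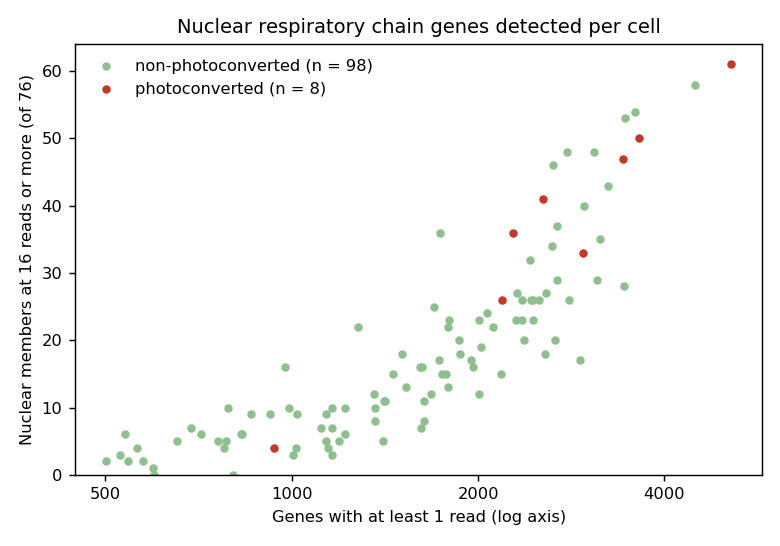
Number of the 76 nuclear members at 16 reads or more in each cell against the number of genes with at least 1 read (log axis), for 98 non-photoconverted and 8 photoconverted cells. Both colours follow 1 rising band, with the photoconverted cells between 4 and 61 members.

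Of the 76 nuclear members, 73 were detected in at least 10 cells of either colour and enter the counts below. The others were Cox7a1, Atp5s and Atp5sl. The share of cells with the gene was larger in photoconverted than in depth-matched cells for 49 members, smaller for 22 and equal for 2. Among all 3516 nuclear genes tested, 53.8% were in a larger share and 39.3% in a smaller share of photoconverted cells. The median difference was 10 percentage points for the members and 2.5 over all nuclear genes tested. Photoconverted cells also held more reads than their matched cells. A further count drew each cell down to 5000 nuclear gene reads and used the expected chance of at least 1 read in place of 16 reads. By it, 40 members were in a larger and 33 in a smaller share of photoconverted cells. The median difference was 2.09 points for the members and -0.49 over all nuclear genes tested. At 1 read or more without drawing down, 49 members were in a larger share, beside 52.6% of all nuclear genes tested. In mean CPM, 30 of the 73 members were higher and 43 lower in photoconverted cells (median log2 ratio -0.14, against -0.28 over all nuclear genes tested). Of all 3516 nuclear genes tested, 1407 were higher and 2109 lower, so most genes lay on the lower side as well. Of the 49 members in a larger share of photoconverted cells, 27 had a higher and 22 a lower mean CPM. The direction of the median ratio depended on the 3 cells with cell cycle genes: without them 68 nuclear members were tested, 51 were in a larger and 16 in a smaller share of photoconverted cells, and the median log2 ratio was 0.11 (-0.25 over all nuclear genes tested).

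**Figure D4:**
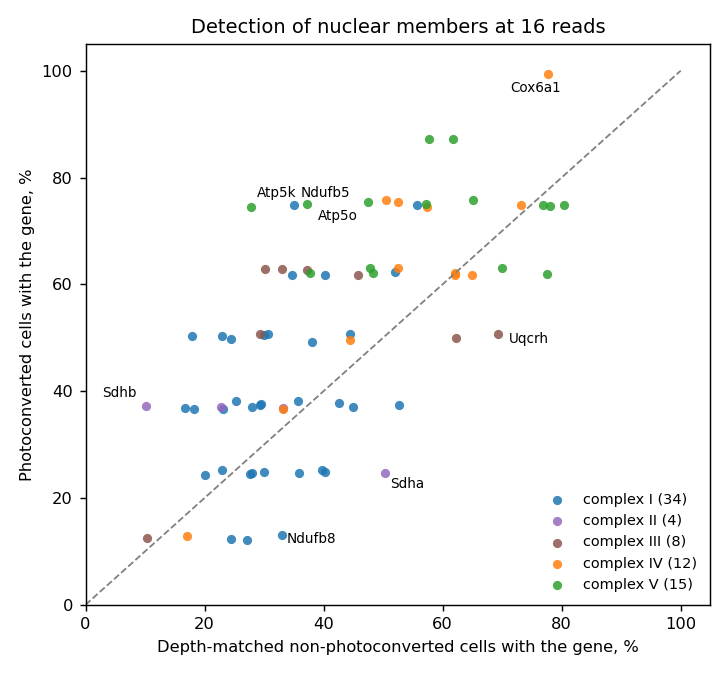
Percentage of the 8 photoconverted cells (vertical axis) against the percentage of depth-matched cells (horizontal axis) with at least 16 reads of each of the 73 nuclear members tested, coloured by complex. Points are shifted by up to about 1 percentage point so that equal values can be seen; 49 members lie above the dashed line of equal shares, among them Atp5k and Cox6a1, and 22 lie below it, among them Sdha.

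Members 2-fold or more apart in mean CPM were 9 higher and 7 lower in photoconverted cells, out of 87 tested nuclear and mitochondrial members. Over all 3530 genes tested, 11.5% were 2-fold or more higher and 27.1% were 2-fold or more lower. The members on the higher side included Sdhb, Ndufb4, Ndufa8, Ndufb5, Ndufb3, Ndufa1, Cox6a1 and Atp5k. On the lower side were Uqcrb, Ndufa12, mtNd4l, Ndufs3, Ndufb8, Sdha and Ndufc2. For 26 of the 73 tested nuclear members a single photoconverted cell held over 50% of the summed CPM of that colour, so that single cells decided many of these ratios.

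In complex I, the entry point for electrons from NADH, 22 of 34 nuclear members were in a larger and 12 in a smaller share of photoconverted cells (median difference 7.5 points). Ndufb5, an accessory subunit of the membrane arm, had the largest difference of the complex, with 6 of 8 photoconverted (34.9 to 96.8%, exact 95% binomial interval) against 35% of depth-matched cells. Its level was 0, 79.5 and 1182 CPM in the lowest, median and highest photoconverted cell, with a median of 4.3 and highest value of 319.6 in matched cells. The log2 ratio of means was 1.36, and it ranged from -0.22 to 1.76 when each photoconverted cell was left out, so its direction rested on 1 cell. Ndufb3, also of the membrane arm, was in 4 of 8 against 17.5% of matched cells, with a log2 ratio of 1.22 (0.63 to 1.79). The members in a smaller share included Ndufb8 (1 of 8 against 32.5%), Ndufb6 (2 of 8 against 40%) and Ndufa2 (3 of 8 against 52.5%). Subunits of 1 arm thus lay on both sides.

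The complex I members with most reads were Ndufa12, Ndufc2 and Ndufa6, all accessory subunits. Ndufa12 had a log2 ratio of -2.36, with a wide range (-4.78 to -1.68): its photoconverted median was 5.72 CPM and its highest matched cell was at 10942 CPM. Ndufc2 lay just past 2-fold lower, with -2.04 to -0.26 when each photoconverted cell was left out. Ndufa6 was detected in 6 of 8 photoconverted and 55% of matched cells with a ratio of -0.16, and every photoconverted cell had reads of it.

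Complex II, succinate dehydrogenase, is the 1 complex whose subunits are all nuclear, and it links the chain to the citric acid cycle. Its catalytic subunits differed in direction. Sdha, the flavin-carrying subunit that oxidises succinate, was detected in 2 of 8 photoconverted cells against 50% of matched cells, the largest difference towards a smaller share among all nuclear members. Its level was 0, 3.58 and 451 CPM in photoconverted cells, against a matched median of 33.7 and highest value of 1313, with a log2 ratio of -1.40 (-3.29 to -1.02). Sdhb, the iron-sulphur subunit, was detected in 3 of 8 against 10% and had a ratio of 1.71 (1.30 to 2.19). Its mean was 48.3 CPM in photoconverted and 7.88 CPM in matched cells, but 15.3% of all non-photoconverted cells had the gene. The membrane anchors Sdhc and Sdhd were each in 3 of 8 photoconverted cells, against 32.5% and 22.5% of matched cells, and had ratios of -0.73 and -0.35.

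In complex III, which passes electrons from quinol to cytochrome c, 6 of 8 nuclear members were in a larger and 2 in a smaller share of photoconverted cells (median difference 18.75 points). Uqcr10, a small subunit, was in 5 of 8 against 30% of matched cells, and Uqcrc2, a core subunit, in 5 of 8 against 32.5%. Uqcrh, the hinge protein beside cytochrome c1, was in 4 of 8 against 70%. Uqcrb, a quinone-binding subunit, had the lowest ratio of all members, -2.43 (-3.23 to -1.77). It was at 0, 20.7 and 225 CPM in photoconverted cells, against a matched median of 136 and highest value of 2417, and 4 of 8 photoconverted against 62.5% of matched cells had it. The ranges of the 2 colours overlapped.

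In complex IV, cytochrome c oxidase, 8 of 12 tested members were in a larger share, 2 in a smaller and 2 in an equal share (median difference 5 points). Cox6a1, a regulatory subunit of the form found outside muscle, was the only tested nuclear member detected in 8 of 8 photoconverted cells (63.1 to 100%), against 77.5% of matched and 49% of all non-photoconverted cells. Its level was 121, 651 and 2618 CPM in photoconverted cells, against a matched median of 296 and highest value of 2065. The log2 ratio of means was 1.07 and stayed between 0.66 and 1.32 when each photoconverted cell was left out. Although no photoconverted cell was without it, the ranges overlapped. Cox8a, the subunit with most reads of the complex, was in 6 of 8 against 72.5% with a ratio of -0.64, and Cox6c was in 5 of 8 against 52.5% with -0.37.

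Where complex IV subunits have alternative forms, the widely expressed forms were read. Cox4i2, Cox6a2, Cox6b2, Cox8b, Cox8c and Ndufa4l2 have no row among the members, so nothing can be said of these forms. Cox4i1 was in 6 of 8 photoconverted and 57.5% of matched cells (log2 ratio 0.21), and Cox6b1 in 5 of 8 and 62.5% (0.27). Of the VIIa forms, Cox7a2 was in 3 of 8 and 32.5% (0.50). Cox7a2l was in 5 of 8 and 65% (-0.57). Cox7a1, the form of heart and skeletal muscle, was detected in 1 of 98 non-photoconverted cells and in 0 of 8 photoconverted cells; a count of 0 here leaves room for a share of 37.5%. Ndufa4 was in 4 of 8 and 45% (-0.25).

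In complex V, 10 of 15 tested members were in a larger and 5 in a smaller share (median difference 15 points), and the 3 members with the largest ratios came from its stalks and membrane part. Atp5k, the e subunit of the membrane part, had the largest difference of all nuclear members, 6 of 8 (34.9 to 96.8%) against 27.5% of matched cells. It was at 0, 136 and 742 CPM in photoconverted cells, against a matched median of 5.47 and highest value of 1349, with a log2 ratio of 1.06 (0.77 to 1.52). Photoconverted cells were thus mostly high, but the highest single cell was non-photoconverted. Atp5o, the stalk subunit that confers oligomycin sensitivity, was in 6 of 8 against 37.5% (log2 ratio 0.81, 0.46 to 1.01). Atp5c1, the rotating gamma subunit, was in 7 of 8 against 57.5% (0.66, 0.45 to 0.92), and every photoconverted cell had reads of it. Atp5e, the epsilon subunit bound to gamma, lay in the other direction with 5 of 8 against 77.5% (-0.50).

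Atp5g1, Atp5g2 and Atp5g3 encode the same mature subunit of the membrane ring, with different import sequences, and all were read in both colours. Atp5g1 was in 6 of 8 photoconverted and 47.5% of matched cells (log2 ratio -0.06), Atp5g2 in 6 of 8 and 77.5% (-0.53), and Atp5g3 in 7 of 8 and 62.5% (0.27). Their directions differed, and the ratio changed sign on leaving out 1 cell for Atp5g1 (-0.30 to 0.30). Reads of such close copies, and of subunits with processed pseudogenes, may be shared in the authors' counting. Atp5h, the d subunit of the stalk, was in 6 of 8 and 65% with a ratio of -0.24.

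Summed per complex and genome of origin, all mitochondrial sums had a lower mean share of gene reads in photoconverted cells, whereas the nuclear sums of complexes IV and V were close to equal. The mitochondrial sum of complex I was 0.271%, 1.52% and 3.19% in the lowest, median and highest photoconverted cell, with a matched median of 2.14%. The log2 ratio of mean shares was -0.61 for complex I, -0.53 for complex III, -0.46 for complex IV, -0.43 for complex V and -0.86 for ribosomal RNA. All of these stayed below 0 when each photoconverted cell was left out in turn. Of the nuclear sums, complex II had -0.84, complex III -0.60, complex I -0.21, complex V -0.03 and complex IV 0.02. The nuclear ratios of complexes IV and V changed sign on leaving out single cells (-0.09 to 0.14 and -0.19 to 0.16). Without the 3 cells with cell cycle genes they were 0.32 and 0.28, and nuclear complexes I, II and III were at -0.08, -0.46 and -0.59. The mitochondrial ratios without these cells were -0.51 for complex I, -0.27 for III, -0.27 for IV, -0.15 for V and -0.99 for ribosomal RNA. Those of the complexes were thus smaller in size than with all cells, while that of ribosomal RNA was larger. The nuclear share of complex IV was 0.179%, 0.265% and 0.413% in the lowest, median and highest photoconverted cell. The median over all distinct depth-matched cells was 0.214%, and 6 of 8 photoconverted cells lay above this pooled median.

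**Figure D5:**
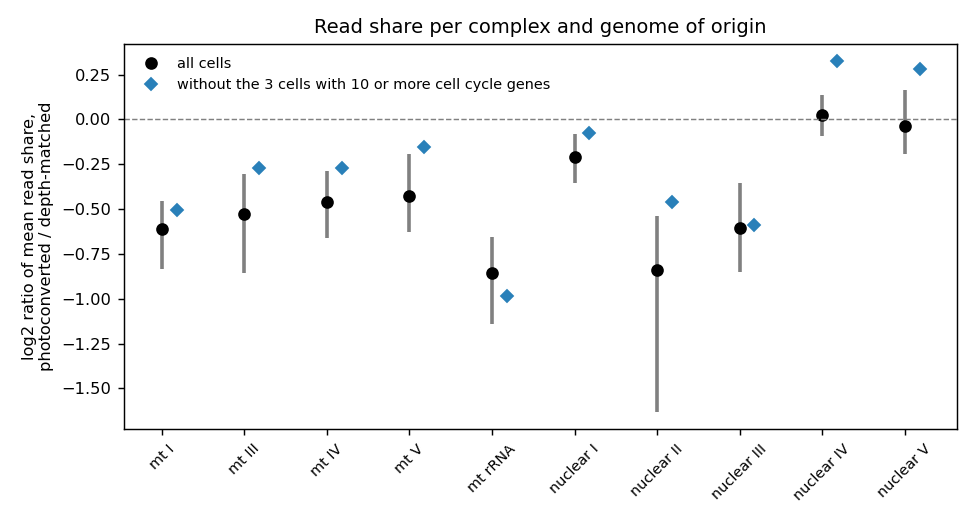
Log2 ratio of the mean read share of photoconverted to depth-matched cells for each complex, mitochondrial (mt) and nuclear subunits apart. Black points use all cells, grey bars run from the lowest to the highest ratio when each photoconverted cell is left out, and blue diamonds leave out the 3 non-photoconverted cells with 10 or more cell cycle genes; all mitochondrial ratios lie below 0, and nuclear complexes IV and V lie near 0 with all cells.

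The balance of the 2 genomes varied more within a colour than between colours. The ratio of reads of mitochondrial protein-coding genes to reads of nuclear members had a median of 5.96 in photoconverted (1.52 to 9.59), 6.42 in depth-matched (1.51 to 55.6) and 9.22 in all non-photoconverted cells (0.208 to 390.9). With reads summed over cells, the ratio in complex I was 5.94 for photoconverted against 10.2 for all non-photoconverted cells, in complex III 12.7 and 18.4, in complex IV 7.09 and 11.4, and in complex V 3.31 and 5.59. These sums are not depth-matched, and cells with more reads weigh more in them. The largest photoconverted cell had 1677643 gene reads, against a median of 540662, and a mitochondrial share of 2.76%. Across the 98 non-photoconverted cells, the mitochondrial and nuclear shares had a Spearman rho of 0.022, and their rho with the number of genes was -0.044 and 0.033. Within the mitochondrial genome the sums of different complexes moved together, with rho of 0.671 between complexes IV and V, 0.503 between I and V and 0.466 between I and IV. Within the nuclear set the values were 0.315 between complexes I and IV, 0.276 between IV and V and 0.219 between I and V, and between the genomes -0.179 in complex I and 0.142 in complex IV. These cells share 1 library, and the values describe it.

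The summed CPM of the nuclear members was compared with the CPM of abundant genes that are not members, across the 98 non-photoconverted cells. Both are scaled to gene reads that include the mitochondrial rows. The most alike genes were Rps12 (Spearman rho 0.451), Rpl32 (0.420), Rps18 (0.399), Tmsb4x (0.380) and Rpl24 (0.350), with a median of 0.065 over 225 candidates. Of these, 4 encode cytosolic ribosomal proteins and Tmsb4x an actin-binding peptide. In the depth terms of the non-photoconverted cells, the third with fewest genes (502 to 1194) had a median of 5 nuclear members detected, the middle one (1220 to 2026) 15 and the one with most genes (2067 to 4480) 27. The nuclear share of reads stayed near 1% in all 3 (1.03%, 0.837% and 0.944%), and the mitochondrial share was 10.4%, 6.96% and 8.76%.

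Other mitochondrial and energy genes are given by the same measure. Over all 3516 nuclear genes tested, 53.8% were in a larger share of photoconverted cells. Their median difference was 2.5 points and their median log2 ratio of mean CPM -0.28. Of the citric acid cycle genes, 11 of 13 tested were in a larger share of photoconverted cells (median difference 7.5 points). In mean CPM 7 of them were higher and 6 lower (median log2 ratio 0.20). Cs, citrate synthase, was in 5 of 8 against 60% of matched cells. Of import proteins and carriers 13 of 20 were in a larger share (13.75 points), with Ucp2, an inner membrane carrier of the uncoupling protein family, in 8 of 8 against 87.5%. In mean CPM 9 of these 20 genes were higher and 11 lower (median log2 ratio -0.09). Ucp2 had mean levels of 5617 and 2430.4 CPM, a log2 ratio of 1.21 that was 0.39 without the photoconverted cell that held 49.5% of the sum. Among electron carriers and their enzymes the count was 5 of 7 (2.5 points), with Cycs, cytochrome c, in 7 of 8 against 55%. In mean CPM 2 of these 7 genes were higher and 5 lower (median log2 ratio -0.31). By share of cells, assembly factors of the complexes (5 larger and 5 smaller of 11) and mitochondrial ribosomal proteins (14 larger and 11 smaller of 25, median 2.5 points) were evenly spread. In mean CPM 6 assembly factors were higher and 5 lower (median log2 ratio 0.39). For the mitochondrial ribosomal proteins 10 were higher and 15 lower (-0.32). Of 4 tested genes of mitochondrial transcription and biogenesis none was in a larger share, 2 were in a smaller and 2 in an equal share. In mean CPM 1 of these 4 was higher and 3 lower (-0.32). Antioxidant genes had 5 of 9 in a larger share, with Sod1 in 7 of 8 against 65% and Gpx4 in 5 of 8 against 77.5%. In mean CPM 3 of these 9 genes were higher and 6 lower (median log2 ratio -0.40).

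For comparison outside the mitochondrion, 9 of 12 glycolysis genes were in a larger share of photoconverted cells (median difference 16.25 points, median log2 ratio 0.82 in mean CPM). Pkm, which makes pyruvate, had mean levels of 1196 and 482 CPM. Ldha, which turns pyruvate into lactate, had 1846 and 1084 CPM. The 35 tested proteasome subunits, another large complex of nuclear subunits, had 22 in a larger share, a median difference of 10 points and a median log2 ratio of -0.13. The difference between these lists was not tested.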

How the data were processed

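Single ILC2 of plate 1 were analysed from the deposited table of raw read counts per gene and well, with the deposited sort record giving each well's colour and its red fluorescence intensity in arbitrary units, per the file headers. The submitters' processing notes list STAR, STARsolo, edgeR and the mm10 build; their roles and versions are not given in the sources used here. The values are counts of reads, with a largest value of 119691 in 1 row and well, so amplification copies are included. Row names were used on plate 1 only, because on plates 2 to 4 they do not name the same genes. The members and all gene lists were chosen with earlier results of these data known.

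Spike-ins were left out of gene reads. Cells needed 500 genes and under 25% mitochondrial reads: 52 non-photoconverted and 4 photoconverted cells were under the first limit, and 1 non-photoconverted cell (27.3% mitochondrial reads) was removed by the second alone. A gene was detected at 16 reads and tested if detected in 10 cells. Each photoconverted cell was matched to the 5 cells nearest in log number of genes, and matched cells enter shares and means once for each match (weight of 22.9 equal cells), while matched medians and ranges are over the 29 distinct cells. Means of CPM had 10 added before the log2 ratio, which understates differences of low genes, and 2-fold marks a size, not a test. Intervals are exact 95% binomial and cover counting error only. With 1 plate no test was made. No doublet caller was run on sorted single cells. Named were all mitochondrial protein-coding and ribosomal RNA genes, the 3 nuclear members per complex with highest mean CPM, the 6 with the largest share difference in each direction, alternative subunit forms, up to 2 genes of each other list (a few named by this rule are not reported here) and the 5 genes most like the nuclear sum; members past 2-fold, and examples for motifs, were named after their values were seen. Python 3.11.15, numpy 2.4.6, scipy 1.17.1, pandas 2.3.3 and matplotlib 3.10.9 were used, and the scripts were tested on simulated data.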

Additional observations from a re-analysis of the deposited data

How the results depend on the processing

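Alternatives changed the matching, filters, detection limit, added CPM or cells used. The nuclear log2 ratios of complexes I, IV and V were small and changed sign under some alternatives (ranges over all alternatives -0.36 to 0.53, -0.09 to 0.56 and -0.19 to 0.28). The percentage of photoconverted cells above their matched median ranged from 25 to 50% for the mitochondrial share (37.5% as reported; 28.6 to 42.9% leaving out 1 cell) and from 50 to 75% for the nuclear share (50%; 42.9 to 57.1%). The number of nuclear members in a larger share, 49, was 40 to 71 under the other settings, where the share over all nuclear genes moved as well: 71 of 73 without matching stands beside 86.5%, and 40 stands beside 52.2% at 64 reads and 48.4% when drawn down. The number of members in a larger share was 18 of 29 when detection in 30 cells was required, which leaves fewer genes. It was 42 to 52 leaving out 1 cell. All 14 tested mitochondrial rows were lower in mean CPM except in 3 settings, where 12 or 13 of the 14 were lower. The setting with 12 left out the 3 cells with cell cycle genes. There the median log2 ratio was -0.43, and mtCo2 and mtNd3 had ratios of 0.02 and 0.09.

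The 2-fold counts depended most on the processing. The 9 higher members became 15 with cells of 300 genes, 2 with 30 cells required, 3 with 50 CPM added, 4 with summed reads and 6 to 11 leaving out 1 cell. The 7 lower members became 12 with 3 nearest cells, 14 with matching on reads, 12 with cells of 300 genes, 4 with 1000 genes, 12 without the 2 cells of lowest red fluorescence, 3 with 30 cells required, 11 with summed reads and 5 to 13 leaving out 1 cell (13, 11, 13 and 12 without photoconverted cells 1, 3, 6 and 7). Cells of 300 genes moved the nuclear log2 ratio of complex I from -0.21 to 0.53 and of complex IV from 0.02 to 0.56. For complex II it moved from -0.84 to -1.59 without the 2 cells of lowest red fluorescence and to -1.63 without photoconverted cell 7. The cause was not tested, beyond the fewer genes tested under stricter limits.

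With 8 photoconverted cells of 1 library, shares move in steps of 12.5 points and no spread between animals is known. No paired analysis was possible because the comparison rests on 1 plate and no result came from a test.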
